A study of Homo sapiens with 5 samples.

Results

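The genes described here are 37 of the 25382 genes in the count table, named by symbol for their work in homologous recombination, the Fanconi anaemia pathway and mismatch repair, with the uracil glycosylase UNG beside them. All 37 had enough reads to be tested, as had 13297 genes in all. Expression was measured by RNA sequencing in MDA-MB-231, an established human triple-negative breast cancer line, grown in DMEM with 10% fetal bovine serum and 1% antibiotic and antimycotic. Shear stress separated the line into weakly adherent cells (3 libraries, dated 6, 12 and 15 March) and strongly adherent cells (2 libraries, dated 6 and 15 March). Both groups are cells of the same line with no other treatment named, and the labels do not say whether the libraries came from separate cultures. The p-values therefore measure the spread between these libraries, which may be partly technical, and a response to the shear cannot be told apart from a difference the cells had before it.

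Homologous recombination copies an intact sister chromatid to mend a DNA break, and so works mainly in the S and G2 phases of the cell cycle. Nucleases first trim the ends, the BRCA proteins then load the recombinase onto the single strand, motor proteins help it invade the sister, and helicase complexes dissolve the crossed product. The Fanconi anaemia proteins detect a crosslink at a stalled replication fork, attach ubiquitin to FANCD2 and FANCI, and hand the lesion to recombination. Mismatch repair corrects replication errors, and uracil excision removes uracil built into new DNA. Many of these genes are transcribed when cells enter S phase.

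Each library held 19630386 to 21707459 reads assigned to genes, of which 35407 to 42887 fell on the 37 genes. Markers of the line were checked: vimentin (VIM) lay at 2458 to 2746 CPM (counts scaled to a common library size with edgeR's TMM method) and CD44 at 1471 to 1696 CPM, while the mesenchymal marker SPARC was at most 0.591 CPM. The receptor genes ESR1 and PGR had no count in any library, where 3 counts, the limit that a count of 0 allows, would be 0.153 CPM in the smallest library. Of the other genes listed as absent from the line, GATA3 lay at 12.4 to 14.0 CPM and COL1A1 at 7.23 to 13.0 CPM, and ACTA2, PECAM1 and PTPRC at most at 2.90 CPM. In bulk RNA, fewer cells expressing a gene and less RNA per cell cannot be told apart.

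Weakly adherent cells had less RNA of the exonuclease EXO1 and of UNG, and most of the other repair genes moved little. Of the 37 genes, 2 fell (5.41%, against 0.918% of all tested genes) and 0 rose (against 1.77%), and 2.68% of all tested genes were called in either direction. A call is an adjusted p under 0.05 in edgeR's quasi-likelihood test, with Benjamini-Hochberg adjustment over all 13297 genes. Only BRCA2 was higher at an unadjusted p under 0.05, and DESeq2 called it while limma-voom did not. At that unadjusted threshold 8 genes were lower, and the 9 together made 24.3% of the 37, against 14.2% of all tested genes. The log2 fold change, weakly minus strongly adherent, was negative in 27 of the 37 (73.0%), against 6672 of the 13297 tested genes. Its median was -0.08, against -0.00054 over all tested genes. The median was -0.01 when the 15 March library of strongly adherent cells was left out. All 3 weakly adherent libraries lay below both strongly adherent ones for 10 genes (27.0%, against 14.5% of all tested genes) and above them for 2 (5.41%, against 15.5%).

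**Figure D1:**
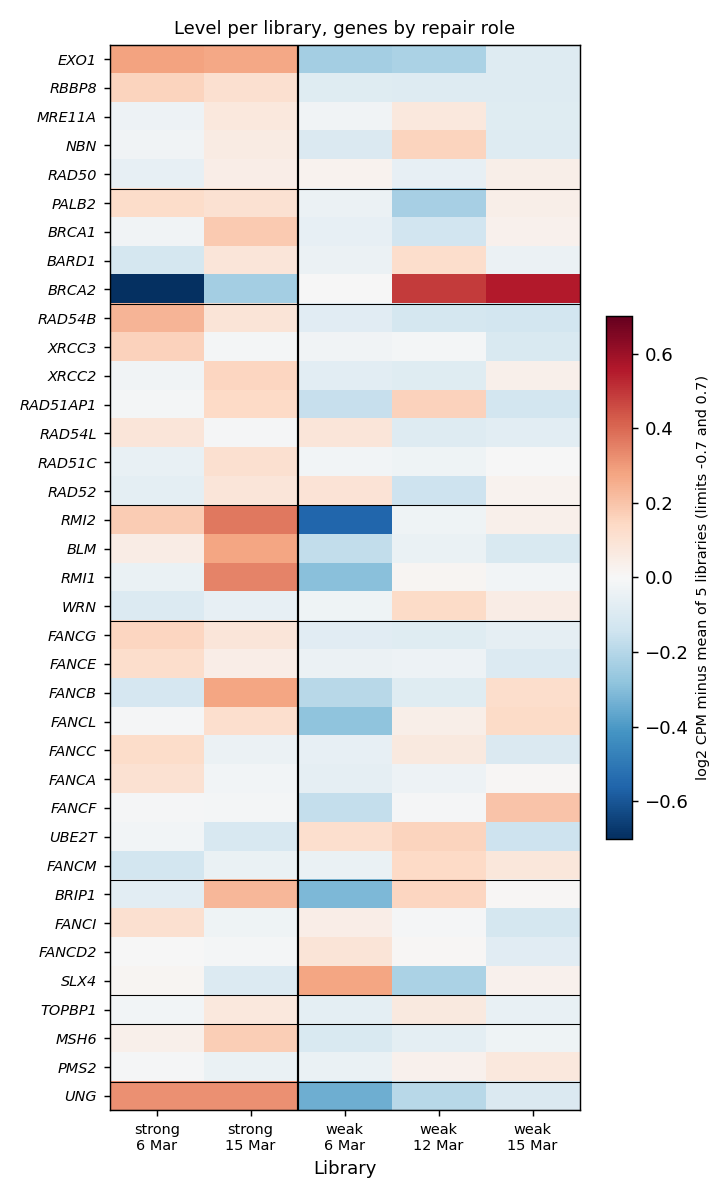
Heat map of the 37 genes (rows, grouped by repair role) in the 5 libraries (columns), each cell the log2 CPM minus that gene's mean over the libraries. EXO1 and UNG are high in both strongly adherent libraries and low in the weakly adherent ones, while BRCA2 runs the other way, from 11.8 CPM in the strongly adherent library of 6 March to 30.4 CPM in the weakly adherent library of 15 March.

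Libraries of the same date form a pair, and a fit that compares them within the date called more of the genes. With the date as a block, 7 genes were lower (18.9%, against 5.28% of all tested genes) and 1 was higher (2.70%, against 6.20%). The genes lower were EXO1, RBBP8, BLM, RMI1, RMI2, BRIP1 and UNG, and the gene higher was BRCA2. The 12 March library has no partner and does not bear on that estimate, which rests on 1 residual degree of freedom. Its p-values therefore rest mostly on a spread that edgeR estimates over all genes. Very small ones do not measure the spread of that gene's own libraries. On simulated data without a date effect, the date block fit made more false calls than the fit of 5 libraries and than its threshold allows. Genes called by it alone are thus less certain, and data with a date effect were not simulated. With the date as a random effect in limma-voom, RMI1 and BRIP1 were not called (adjusted p = 0.072 and 0.30). Between the pairs of 6 and of 15 March, 21 genes were lower in both (56.8%, against 31.0% of all tested genes) and 4 were higher in both (10.8%, against 31.9%). The other 12 had opposite signs on the 2 dates.

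**Figure D2:**
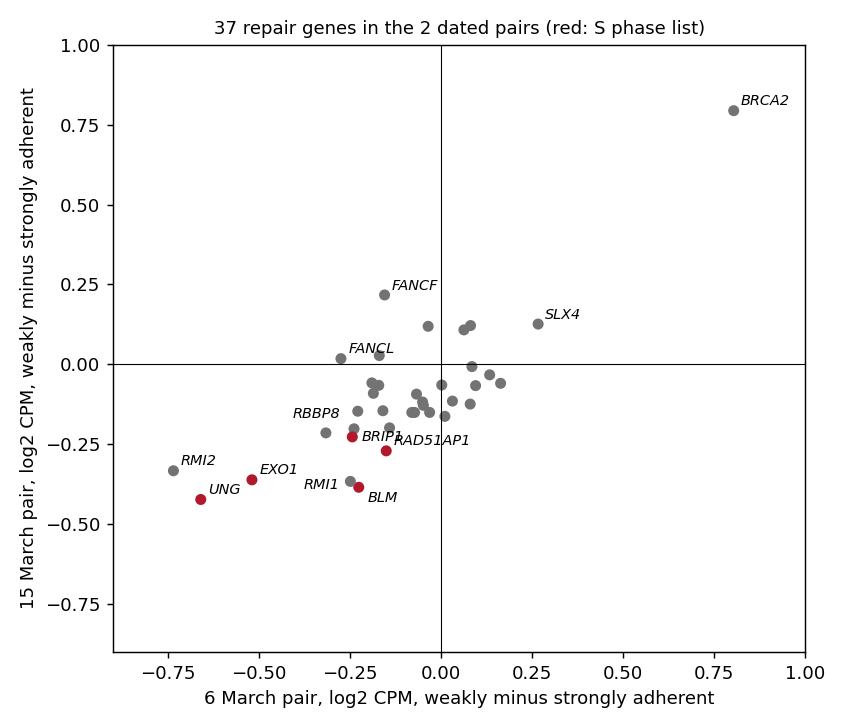
Difference in log2 CPM between the weakly and the strongly adherent library of 6 March (x axis) and of 15 March (y axis), 1 point per gene, red for genes of the S phase list. UNG (-0.66 and -0.42), EXO1 (-0.52 and -0.36) and RMI2 (-0.73 and -0.33) lie at the lower left, and BRCA2 (0.80 and 0.79) lies farthest to the upper right.

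Promoters of these genes are shown because S phase genes are commonly driven by E2F factors, and 1 of the fallen genes carries an E2F word beside its start. RefSeq promoters (250 bases before to 50 after the start, GRCh38.p14) were found for 32 of the 37 genes, all but NBN, RAD54B, WRN, RMI2 and FANCI. Only 1 promoter was searched per repair or tested gene, so any other start of a gene was not covered. The E2F words TTTCCCGC, TTTCGCGC, TTTGCCGC and TTTGGCGC, sought on both strands, occurred in 8 of the 32 promoters (25%), in 5.42% of 10456 promoters of tested genes and in 3.31% of all 35116 promoters. The CHR words TTTGAA and TTCGAA, known from promoters of G2 and M phase genes, occurred in 3 of the 32 (9.38%, against 11.1% of tested and 16.4% of all promoters), and CCAAT in 46.9% (against 36.6% and 34.6%). No match of 1 kind overlapped a match of another. The 4 promoters with an E2F word within a few bases of the start follow, from 90 bases before to 30 after it, 5′ to 3′ on the gene's strand, with the word in capitals. They are EXO1 at chr1:241848114-241848233 (forward strand), FANCD2 at chr3:10026347-10026466 (forward strand), TOPBP1 at chr3:133661912-133662031 (reverse strand) and MSH6 at chr2:47783055-47783174 (forward strand).
EXO1: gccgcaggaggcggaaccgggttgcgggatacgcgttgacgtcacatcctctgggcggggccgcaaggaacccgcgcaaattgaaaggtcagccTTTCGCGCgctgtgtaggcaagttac
FANCD2: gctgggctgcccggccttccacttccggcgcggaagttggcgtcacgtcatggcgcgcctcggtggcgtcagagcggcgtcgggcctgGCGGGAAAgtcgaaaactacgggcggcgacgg
TOPBP1: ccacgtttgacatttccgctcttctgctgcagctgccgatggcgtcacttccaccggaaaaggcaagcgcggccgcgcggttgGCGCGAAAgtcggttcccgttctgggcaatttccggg
MSH6: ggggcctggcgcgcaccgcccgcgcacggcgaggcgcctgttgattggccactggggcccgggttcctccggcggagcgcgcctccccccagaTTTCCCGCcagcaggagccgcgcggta

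Of these 4 genes EXO1 fell, while FANCD2 (log2 fold change 0.02), TOPBP1 (-0.04) and MSH6 (-0.17) did not pass. The other E2F words lay in XRCC2, FANCA, FANCC and PMS2, none of which passed. In the same window no E2F or CHR word lay in UNG (chr12:109097507-109097626 (forward strand)), BLM (chr15:90717256-90717375 (forward strand)), RMI1 (chr9:83980269-83980388 (forward strand)) or BRCA2 (chr13:32315418-32315537 (forward strand)), which are printed for comparison. Over the whole promoters, CHR words lay only in FANCC, UBE2T and BRIP1, each farther before the start than this window reaches. RBBP8, like BRIP1 lower with the date block, had no E2F or CHR word. A match describes these letters and not a bound site.
UNG: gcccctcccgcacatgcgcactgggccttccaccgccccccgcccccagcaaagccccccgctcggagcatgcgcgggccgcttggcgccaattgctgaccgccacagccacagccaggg
BLM: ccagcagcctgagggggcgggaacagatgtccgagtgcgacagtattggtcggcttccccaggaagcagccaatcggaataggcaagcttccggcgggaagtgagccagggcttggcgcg
RMI1: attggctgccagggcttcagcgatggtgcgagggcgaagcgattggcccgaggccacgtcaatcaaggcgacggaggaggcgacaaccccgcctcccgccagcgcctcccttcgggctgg
BRCA2: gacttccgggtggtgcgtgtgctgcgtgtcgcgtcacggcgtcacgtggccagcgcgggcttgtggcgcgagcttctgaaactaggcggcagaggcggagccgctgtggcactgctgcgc

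End resection, the first step of recombination, split between its nucleases. EXO1, the exonuclease that extends the resected strand and also acts in mismatch repair, lay at 63.6 and 63.0 CPM in the strongly adherent libraries of 6 and 15 March. Weakly adherent cells of 6, 12 and 15 March had 44.4, 45.0 and 49.1 CPM. The groups did not overlap, with a mean of 63.3 ± 0.423 CPM (SD, n = 2) against 46.2 ± 2.56 CPM (SD, n = 3). EXO1 thus fell by 0.46 on the log2 scale (SE 0.08, 1.37-fold lower, adjusted p = 0.011 in edgeR). Leaving out the 6 March library of strongly adherent cells ended the call, at -0.45 (adjusted p = 0.079 in edgeR). It passed in the other 15 of the 16 alternatives.

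RBBP8, the CtIP protein that starts resection, had 122 and 118 CPM in strongly adherent cells and 103, 103 and 103 CPM in weakly adherent ones. The groups did not overlap, the log2 fold change was -0.22 (SE 0.07), and it passed in the date block fit (edgeR adjusted p = 0.014) but not over the 5 libraries (adjusted p = 0.14). The nuclease complex that binds the broken end did not pass in either fit. MRE11A, its nuclease, had 55.9 ± 3.06 CPM (SD, n = 2) in strongly and 54.6 ± 3.04 CPM (SD, n = 3) in weakly adherent cells. RAD50, its tethering ATPase, had a log2 fold change of 0.01 with a 95% interval of -0.16 to 0.18, and NBN, its signalling subunit, one of -0.03 (-0.22 to 0.17). Within each library, free of scaling, EXO1 had 1.18 and 1.09 reads for each MRE11A read in strongly adherent cells and 0.821, 0.777 and 0.947 in weakly adherent ones.

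The BRCA mediators held the gene with the largest difference, in the direction opposite to EXO1. BRCA2, which carries the recombinase to single-stranded DNA, had 11.8 and 17.5 CPM in the strongly adherent libraries of 6 and 15 March, and 20.6, 29.01 and 30.4 CPM in weakly adherent cells of 6, 12 and 15 March. The groups did not overlap, but the lowest weakly adherent library was close to the highest strongly adherent one. The log2 fold change was 0.86 (SE 0.22, 95% interval 0.34 to 1.38). It did not pass over the 5 libraries (adjusted p = 0.12) but did within dates (0.80, adjusted p = 9.54e-13, both by edgeR). The pairs of 6 and 15 March differed by 0.80 and 0.79 on the log2 scale. BRCA2 also differed between the dates, higher on 15 than on 6 March by 0.56 (SE 0.10, edgeR with adhesion as covariate). DESeq2 called BRCA2 higher (adjusted p = 0.00029), as did edgeR when weakly adherent 6 March was left out (1.02, adjusted p = 0.0046). In edgeR it did not pass without weakly adherent 12 March (0.79, adjusted p = 0.26) or 15 March (0.76, adjusted p = 0.18). Without strongly adherent 6 or 15 March, which leaves 1 library in that group, its log2 fold change was 0.60 or 1.18. It passed in 6 of the 16 alternatives. Over all alternatives the adjusted p ran from 9.54e-13 to 0.37, and the log2 fold change was positive in each.

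The partners of BRCA2 did not pass in either fit. PALB2, which joins BRCA1 to BRCA2, had 25.9 and 25.6 CPM in strongly and 23.0, 20.2 and 24.5 CPM in weakly adherent cells without overlap (log2 fold change -0.19, SE 0.10, edgeR adjusted p = 0.47). BRCA1, the ubiquitin ligase that opens the way for resection, had 55.8 and 64.4 CPM against 54.6, 51.7 and 58.0 CPM (-0.13, SE 0.09, edgeR adjusted p = 0.59), and the groups overlapped. BARD1, the obligate partner of BRCA1, had a log2 fold change of 0.03 (95% interval -0.19 to 0.25) over the 5 libraries and -0.02 with the date block. Counted within each library, BRCA2 had 0.456 and 0.686 reads for each PALB2 read in strongly adherent cells and 0.895, 1.44 and 1.24 in weakly adherent ones. Against BRCA1 the ratio was 0.212 and 0.273, and 0.377, 0.561 and 0.524. Both ratios were higher in every weakly adherent library than in either strongly adherent one, and that difference was not tested. BRCA2 has a longer coding sequence (10254 bases) than PALB2 (3558) and BRCA1 (5652), and these ratios do not take coding length into account.

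**Figure D3:**
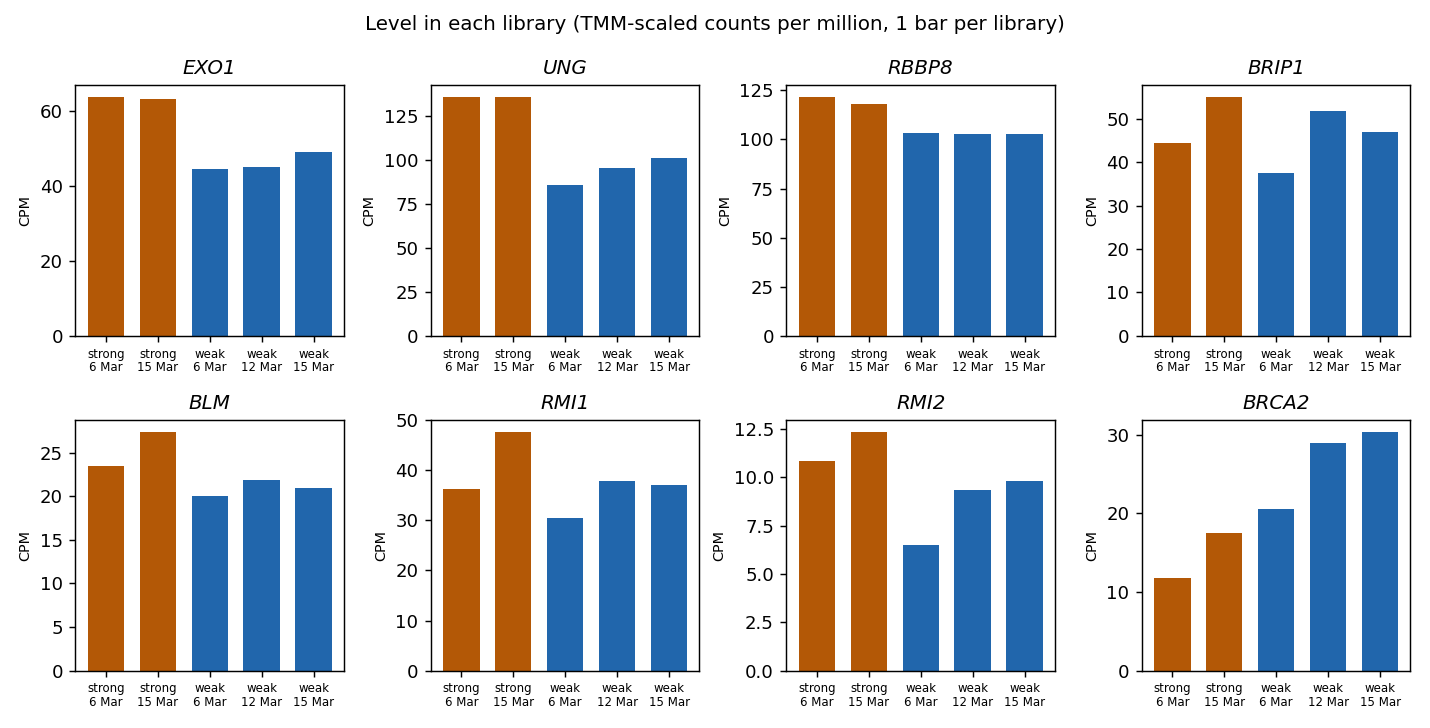
Bars give the TMM-scaled CPM of the 8 genes called in either fit, 1 bar per library, brown for strongly and blue for weakly adherent cells. EXO1, UNG, RBBP8, BLM and RMI2 are lower in all 3 weakly adherent libraries and BRCA2 is higher, while RMI1 and BRIP1 are lower within each date with groups that overlap.

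BRCA2 is by far the longest coding sequence among the 37 genes, and long coding sequences tended to be higher in weakly adherent cells. Its coding sequence has 10254 bases in GENCODE 29, followed by FANCM (6144), BRCA1 (5652) and SLX4 (5502). Among the 87 other tested genes within 20% of the coding length of BRCA2, the median log2 fold change was 0.47, the quartiles were 0.26 and 0.71, and 45 were called higher and 0 lower. The 0.86 of BRCA2 lay above that upper quartile. After each library's trend with coding length was taken out, BRCA2 lay at 0.43 (edgeR adjusted p = 0.37), or 0.34 with the date block as well (edgeR adjusted p = 0.014). What gives long coding sequences more reads here was not tested.

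The other 3 long genes lay below the median of genes of like length. FANCM, the helicase that anchors the Fanconi core at a stalled fork, had 16.6 and 17.6 CPM in strongly and 17.6, 19.97 and 19.1 CPM in weakly adherent cells. It lay 0.14 higher on the log2 scale (SE 0.11, edgeR adjusted p = 0.65), near the median of 0.17 of 385 genes of like length. It turned to -0.06 with the length trend removed (adjusted p = 0.93). SLX4, the scaffold of structure-cutting nucleases, had 19.9 and 18.4 CPM against 23.9, 16.9 and 20.1 CPM, a log2 fold change of 0.09 (-0.08 with the length trend removed). BRCA1, at -0.13, lay below the lower quartile (-0.02) of 456 genes of like length. With the length trend removed BRCA1 was at -0.30 (edgeR adjusted p = 0.096), and with the date block as well it was called lower (-0.27, edgeR adjusted p = 0.0066). In that last fit 9 of the 37 genes were lower (24.3%, against 5.23% of all tested genes), the 7 of the date block fit with BRCA1 and MSH6. BRCA2 alone was higher (2.70%, against 4.47%).

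**Figure D4:**
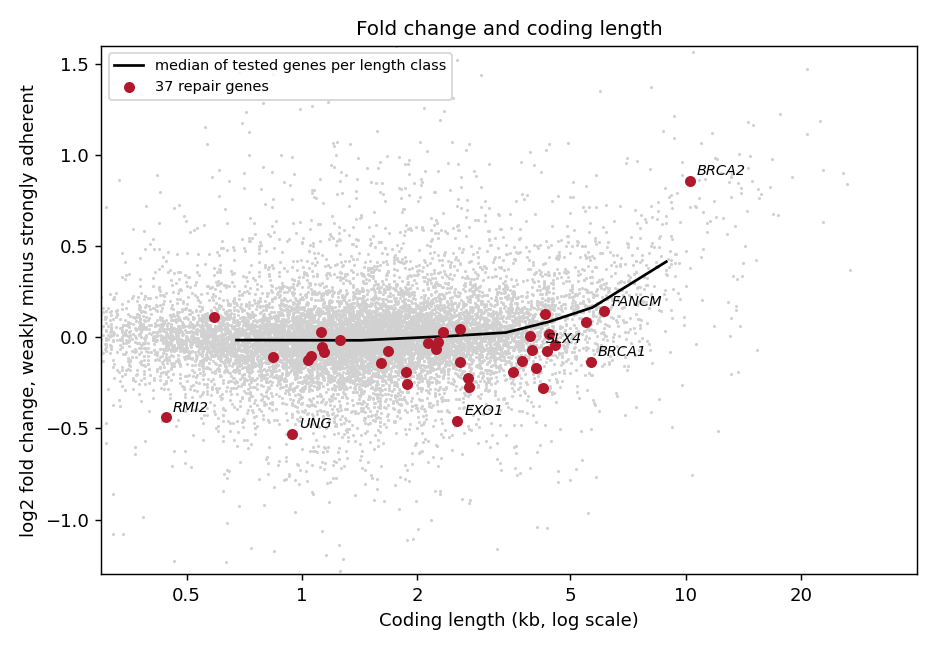
Log2 fold change, weakly minus strongly adherent (y axis), against coding length in kb on a log scale (x axis), grey for tested genes, red for the 37 repair genes, and a line through the median of each length class. The line runs from -0.01 under 1 kb to 0.42 over 7 kb, with BRCA2 above it and BRCA1, UNG, EXO1 and RMI2 below.

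Strand invasion genes did not pass in either fit. All 7 had a negative log2 fold change (against 6672 of the 13297 tested genes), with a median of -0.10. The only one at an unadjusted p under 0.05 was RAD54B, a motor that remodels the recombinase filament. RAD54B had 23.8 and 21.4 CPM in strongly and 19.1, 18.5 and 18.5 CPM in weakly adherent cells, with no overlap (log2 fold change -0.27, SE 0.10, edgeR adjusted p = 0.21). Its paralog RAD54L had 48.8 and 45.7 CPM against 48.9, 43.3 and 43.7 CPM, which overlap. RAD51C, XRCC2 and XRCC3, recombinase paralogs that stabilise the filament, had log2 fold changes of -0.05, -0.11 and -0.12, and their intervals reached from -0.31 to 0.16. RAD51AP1, which helps the filament pair with the sister strand, lay at -0.10 (SE 0.11). RAD52, the annealing protein, lay at -0.01 (SE 0.14) and at 0.05 with the date block.

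Of the complex that dissolves crossed recombination products, BLM, RMI1 and RMI2 were lower within both dates, and its topoisomerase is not among the 37. BLM, its helicase, had 23.4 and 27.4 CPM in the strongly adherent libraries of 6 and 15 March and 20.1, 21.9 and 21.0 CPM in the weakly adherent ones. The groups did not overlap (log2 fold change -0.28, SE 0.10, edgeR adjusted p = 0.22). BLM passed within dates (edgeR adjusted p = 0.019). RMI2, a small scaffold subunit, had 10.8 and 12.4 CPM against 6.51, 9.35 and 9.82 CPM, again without overlap. Its log2 fold change was -0.44 (SE 0.17, edgeR adjusted p = 0.24), and it passed within dates (edgeR adjusted p = 0.0025). RMI1, the subunit that steers the topoisomerase, had 36.3 and 47.7 CPM against 30.6, 37.9 and 37 CPM, and the groups overlapped.

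RMI1 had a negative log2 fold change in both fits and passed only with the date block (-0.31, edgeR adjusted p = 0.0033, against -0.26 and 0.43 over the 5 libraries). Its differences within 6 and 15 March were -0.25 and -0.37. With strongly adherent 15 March left out its log2 fold change was -0.04, that of BLM -0.16 and that of RMI2 -0.34. Within each library, RMI1 had 1.55 and 1.74 reads for each BLM read in strongly, and 1.52, 1.73 and 1.76 in weakly adherent cells, which overlap. WRN, a related helicase outside this complex, had 18.8 and 19.3 CPM against 19.7, 22.0 and 20.8 CPM. It lay above without overlap, but the log2 fold change of 0.13 (SE 0.10) did not pass (edgeR adjusted p = 0.68), and it turned to -0.00302 with the length trend removed and the date block.

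The Fanconi core is the ubiquitin ligase that marks FANCD2 and FANCI. Its genes and UBE2T, 9 in all, did not pass in either fit. Their median log2 fold change was -0.08, with a range of -0.19 to 0.14. FANCG, a scaffold subunit, was the only one at an unadjusted p under 0.05, with 76.9 and 73.5 CPM in strongly and 65.7, 65.3 and 66.4 CPM in weakly adherent cells (log2 fold change -0.19, SE 0.07, edgeR adjusted p = 0.24). FANCE, which binds FANCD2, also lay lower without overlap, at 68.0 and 64.7 against 60.9, 61.1 and 58.5 CPM (-0.14, SE 0.08). FANCL, the ligase subunit, lay at -0.08 (95% interval -0.38 to 0.22). UBE2T, the ubiquitin-conjugating enzyme that works with FANCL, had 60.6 and 56.8 CPM against 66.5, 68.3 and 55.5 CPM and lay at 0.11 (-0.10 to 0.32). The subunits FANCA, FANCB, FANCC and FANCF lay between -0.14 and 0.03, and their libraries overlapped. FANCF differed in sign between the dates, with -0.15 on 6 March and 0.22 on 15 March.

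The targets of the core and the proteins that act after it were also close to level over the 5 libraries. With the date block, only BRIP1 of them was called. FANCD2 had 50.9 and 50.5 CPM in strongly and 54.4, 51.4 and 48.3 CPM in weakly adherent cells, a log2 fold change of 0.02 (SE 0.08, 95% interval -0.17 to 0.20). FANCI, its partner in the clamp, had 134 and 121 CPM against 128, 123 and 113 CPM (-0.07, SE 0.08). The ratio of FANCD2 to FANCI reads ran from 0.381 to 0.426 over the 5 libraries. BRIP1, the helicase also named FANCJ, had 44.5 and 55.0 CPM against 37.6, 51.8 and 47.0 CPM. The groups overlapped, and BRIP1 passed only with the date block (-0.23, edgeR adjusted p = 0.030, against -0.13 and 0.80 over the 5 libraries). It lay at 0.04 with strongly adherent 15 March left out. TOPBP1, the activator of the ATR checkpoint kinase, had 86.8 and 92.6 CPM against 83.9, 92.3 and 84.7 CPM (-0.04, SE 0.08).

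**Figure D5:**
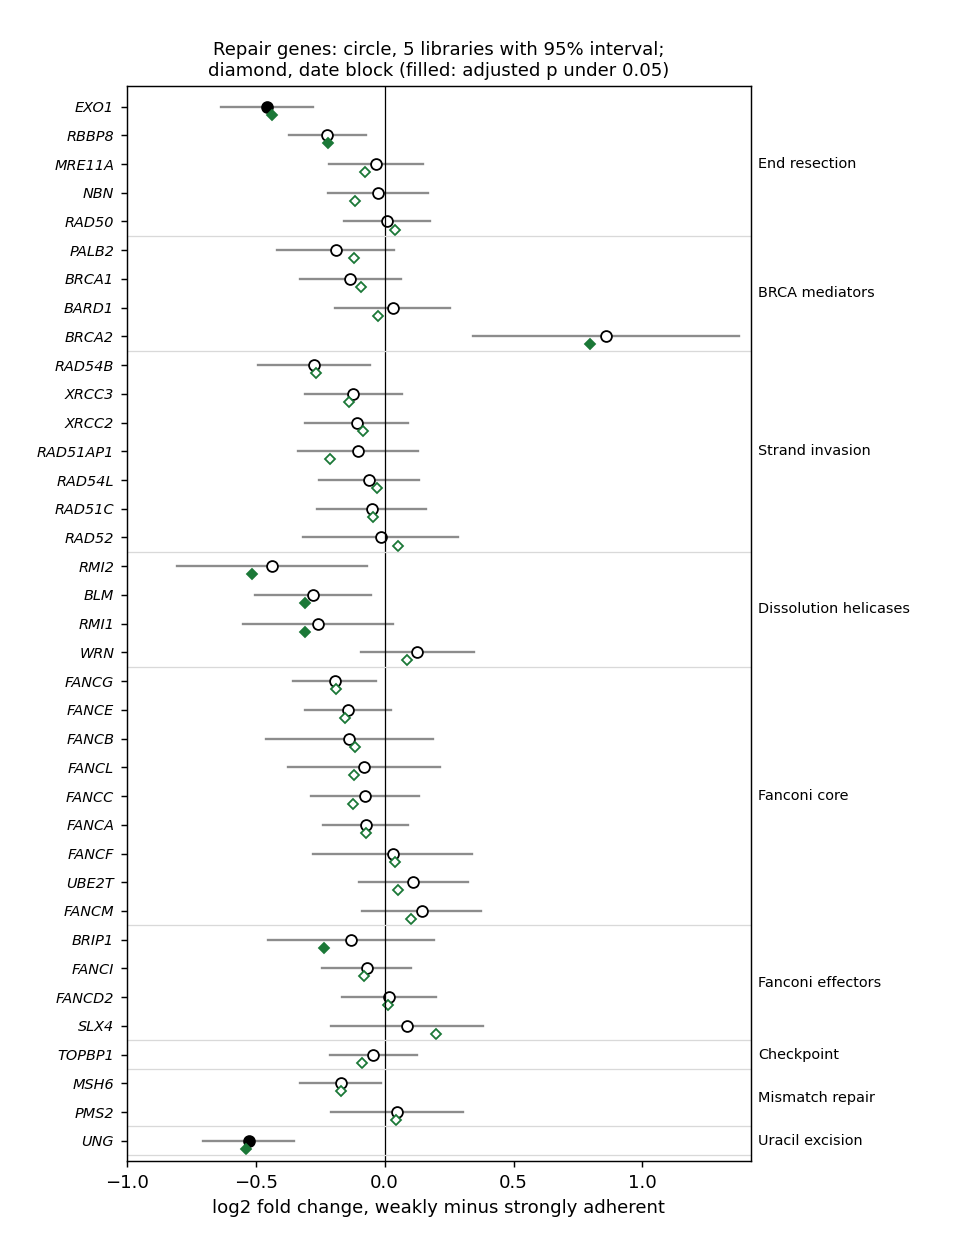
Log2 fold change, weakly minus strongly adherent, of each gene, grouped by repair role. Circles with bars are the fit of 5 libraries with its 95% interval, diamonds the fit with the date block, and filled symbols have an adjusted p under 0.05: EXO1 and UNG in the first, and 8 genes in the second.

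Mismatch recognition differed little, while the uracil glycosylase had the smallest p among the 37 genes. MSH6, which recognises base mismatches, had 187 and 205 CPM in strongly and 169, 174 and 179 CPM in weakly adherent cells, without overlap. Its log2 fold change of -0.17 (SE 0.07) did not pass over the 5 libraries (edgeR adjusted p = 0.30) or within dates (adjusted p = 0.075). It passed with the block and the length trend removed (-0.24, adjusted p = 0.0082). PMS2, the nicking subunit of the downstream complex, had 11.2 ± 0.213 CPM (SD, n = 2) and 11.6 ± 0.469 CPM (SD, n = 3). PMS2, like FANCD2, has near-identical pseudogene copies, so its values and those of FANCD2 are uncertain.

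UNG, which removes uracil from DNA at the replication fork, had 136 and 136 CPM in the strongly adherent libraries. Weakly adherent cells had 85.9, 95.1 and 101 CPM on 6, 12 and 15 March. The means were 135.6 ± 0.109 CPM (SD, n = 2) and 94.1 ± 7.76 CPM (SD, n = 3), with no overlap. UNG fell by 0.53 on the log2 scale (SE 0.08, adjusted p = 0.0036 in edgeR). It passed in all 16 alternatives, with adjusted p between 2.20e-13 and 0.022. For each MSH6 read there were 0.725 and 0.660 UNG reads in strongly adherent cells and 0.507, 0.545 and 0.565 in weakly adherent ones.

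The genes that fell are on a published list of S phase genes used to score the cell cycle. That list holds 5 of the 37 genes, EXO1, UNG, BLM, BRIP1 and RAD51AP1, and none is on its G2/M counterpart. Of these 5, 2 fell over the 5 libraries (against 0.918% of all tested genes) and 4 with the date block (against 5.28%). The median log2 fold change of the 5 was -0.28. Of the 32 others, 0 fell over the 5 libraries, and DESeq2 and limma-voom called none lower. At an unadjusted p under 0.05 in edgeR, 5 were lower and 1, BRCA2, was higher, against 14.2% of all tested genes in either direction. With the date block 3 of the 32 were lower (against 5.28% of all tested genes) and 1 was higher (against 6.20%). The median of the 32 was -0.07. The summed level of the 5 was 311 and 330 CPM in strongly and 227, 263 and 259 CPM in weakly adherent cells, and that of the 32 was 1587 and 1620 against 1506, 1546 and 1512 CPM.

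Cell cycle lists moved in the same libraries. The 37 tested S phase genes outside the repair set summed to 5082 and 5172 CPM in strongly and 4081, 4333 and 4170 CPM in weakly adherent cells, with a median log2 fold change of -0.28. The 54 G2/M genes summed to 10680 and 9821 CPM against 15403, 15480 and 11857 CPM. The part of cell cycle phase in the repair genes was not tested.

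Between the dates, the share of the 37 genes called was close to that of all tested genes. Comparing 15 with 6 March, with adhesion as a covariate and 1 residual degree of freedom, edgeR called 3 of the 37 genes higher (8.11%, against 6.74% of all tested genes) and 0 lower (against 2.55%). They were BRCA2 (0.56, SE 0.10), RMI1 (0.33, SE 0.08) and BRIP1 (0.31, SE 0.08). These are also genes whose adhesion result depended on the date block or on a single library.

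Other genes of recombination and the Fanconi pathway came from a list of 47, of which 46 were tested. Over the 5 libraries 2 were higher and 0 lower, against 1.77% and 0.918% of all tested genes. With the date block 2 were higher and 9 lower, against 6.20% and 5.28% of all tested genes. The median log2 fold change was -0.04. Those called over the 5 libraries were the junction resolvase GEN1 (21.3 ± 3.30 CPM, SD, n = 2, in strongly and 32.4 ± 3.02 CPM, SD, n = 3, in weakly adherent cells, log2 fold change 0.61, edgeR adjusted p = 0.018) and the end-joining polymerase POLQ (0.52, edgeR adjusted p = 0.020). POLQ has a coding sequence of 8175 bases, and lay at 0.19 (adjusted p = 0.55) with the length trend removed, while GEN1 lay at 0.60. Of 16 replication and mismatch partners, 0 rose and 2 fell over the 5 libraries, and 0 rose and 7 fell with the date block. The same shares of all tested genes stand beside these counts. The median of the 16 was -0.13. The sliding clamp PCNA had 240 ± 7.29 CPM (SD, n = 2) in strongly and 182 ± 16.1 CPM (SD, n = 3) in weakly adherent cells (log2 fold change -0.41, edgeR adjusted p = 0.021), and the polymerase subunit POLD3 was at -0.36 (edgeR adjusted p = 0.035).

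Levels differed widely between the genes when set per length, as CPM per kb of the transcript with the longest coding sequence. UBE2T stood highest at 67.8 CPM per kb over the 5 libraries, followed by UNG at 53.5 and RBBP8 at 37.03. BRCA2 stood lowest at 1.83, below FANCM at 2.56 and SLX4 at 2.71. By group, BRCA2 had 1.22 CPM per kb in strongly and 2.23 in weakly adherent cells. Which transcript the cells used is not known, so these levels are approximate.

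Some counts may be shared with overlapping genes, since the strand setting of the counting is not given in the sources used here. In GENCODE 29, exons of other genes on the opposite strand cover 45.0% of the exon bases of XRCC3 (KLC1), 27.4% of FANCA (ZNF276), 26.7% of FANCL, 25.9% of RAD54L (LRRC41), 23.9% of MSH6 (FBXO11) and 11.3% of FANCF. On the same strand, the gene model AC116366.3 covers 90.6% of RAD50, and FSBP 79.2% of RAD54B. None of the 8 genes called in either fit (EXO1, UNG, RBBP8, BLM, RMI1, RMI2, BRIP1 and BRCA2) overlaps an exon of another gene there.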

How the data were processed

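RNA of MDA-MB-231 cells was sequenced as 50 bp single-end reads with a stranded TruSeq kit, per the labels' protocols. Tools named in the submitters' processing notes are STAR, HTSeq, cutadapt, FastQC and DESeq2, with the build hg19 and no versions, and the annotation and strand setting are, in the sources used here, not given. The authors deposited raw counts per gene symbol and log2 values. The log2 values deposited by the authors equal log2(count / size factor + 1), as tested on the file. The 5 HTSeq rows of reads outside genes (no feature 7.96% to 9.84% of uniquely aligned reads, ambiguous 1.34% to 1.43%) stayed out of all fits.

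Genes were tested on the deposited counts by the robust quasi-likelihood F test of edgeR 4.0.16 (R 4.3.3) after filterByExpr and TMM scaling, with p adjusted over all tested genes. Log2 fold changes are weakly minus strongly adherent, and each standard error was derived from its F statistic. CPM are TMM-scaled. Alternatives used DESeq2 1.42.0, limma 3.58.1, other filters and scalings, the date block, and a spline of coding length (5 degrees of freedom, GENCODE 29, 91.9% of tested genes with a length). On simulated data with the genes' own uneven spread and no date effect, the fits returned the right signs. In every draw, though, the share of false calls was above the threshold of 0.05, and it was highest with the date block. The date block together with the length trend, or as a random effect, was not simulated.

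Titles give the dates, so same-date libraries were taken as pairs. Within-group deviations of the paired libraries had correlations of 0.34 (6 March) and 0.20 (15 March). The unpaired library of 12 March had -0.16 and 0.16 with the strongly adherent libraries of 6 and 15 March. Each group was centred on its own mean, so the deviations of the strongly adherent libraries are mirror images of each other. The -0.16 and 0.16 are thus a single value with its sign turned. The deviations of the weakly adherent libraries sum to nothing, which ties the values of the pairs to it. These correlations are therefore not separate comparisons and do not decide the pairing, which rests on the dates in the titles. Libraries of a group differed by more than sampling noise (chi-square of their counts over its degrees of freedom, 7.49 to 12.6).

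The genes, the lists and the promoter motifs were chosen with earlier results of these data known. Values in every library are given for genes called in the fit of 5 libraries or with the date block, for coding sequences over 5 kb, and for BRCA1, BRCA2, FANCD2, MSH6 and UNG, and for some others beyond this rule, chosen after their values were seen. Of other lists, at most the 2 genes with the smallest p are named. Promoters are RefSeq's, on GRCh38.p14, and no coordinates of hg19 were used. Figures were drawn with matplotlib 3.10.9.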

Additional observations from a re-analysis of the deposited data

How the results depend on the processing

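Over all tested genes, 235 higher and 122 lower calls became 825 and 702 with the date as a replicate block in edgeR, 670 and 538 with it as a random effect in limma-voom, 595 and 696 with the block and the coding length trend removed, and 125 and 139 with that trend removed alone. Without a filter 333 were higher and 203 lower. Leaving out 1 library at a time gave 82 to 238 higher and 34 to 103 lower calls. Where a strongly adherent library is left out, the lone one is assumed to vary like the other group. Of the repair genes, 0 higher and 2 lower became 1 and 7 with the replicate block, 1 and 5 with the random effect, 1 and 9 with the block and the length trend removed, and 1 and 2 with DESeq2. Leaving out 1 library gave 0 to 1 higher and 1 to 2 lower.

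Signs turned for genes near 0, none of them called in the fit concerned. With the replicate block BARD1 turned to -0.024 and RAD52 to 0.050 (0.015 with the random effect). With the length trend removed, RAD50 turned to -0.055, RAD52 to 0.016, FANCM to -0.060, FANCD2 to -0.075 and SLX4 to -0.076. With both, RAD50 turned to -0.028, BARD1 to -0.027, RAD52 to 0.077, WRN to -0.00302, FANCM to -0.11 and FANCD2 to -0.082. With 1 library left out, the log2 fold change ran over 0 in these genes: MRE11A from -0.090 to 0.028, RAD50 from -0.046 to 0.068, NBN from -0.12 to 0.019, BARD1 from -0.070 to 0.14, RAD51C from -0.13 to 0.037, RAD52 from -0.089 to 0.068, FANCB from -0.32 to 0.079, FANCC from -0.15 to 0.011, FANCF from -0.068 to 0.12, FANCL from -0.16 to 0.034, FANCD2 from -0.025 to 0.066, FANCI from -0.14 to 0.0032, BRIP1 from -0.28 to 0.035, SLX4 from -0.046 to 0.20 and TOPBP1 from -0.092 to 0.00787. The cause of these changes was not tested. Over the other alternatives, 374 of 407 values of single repair genes kept their sign and their side of the threshold, 19 came to pass it and 14 turned sign. Reads per gene and library ran from 137 to 4521, so for the genes with the fewest reads, such as RMI2, RAD52 and FANCF, counting error adds to the spread between libraries, which the small number of libraries estimates poorly.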

Other observations

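Over the 5 libraries, 2.68% of all tested genes were called in either direction (1.77% higher and 0.918% lower). With the date block 11.5% were called (6.20% higher and 5.28% lower). The counts of other lists stand against the shares of the same fit. Of 11 end-joining genes, 1 rose over the 5 libraries and with the date block, the kinase subunit PRKDC, with 201 ± 22.7 CPM (SD, n = 2) in strongly and 377 ± 21.8 CPM (SD, n = 3) in weakly adherent cells (log2 fold change 0.90, edgeR adjusted p = 0.00019). Its coding sequence has 12384 bases, and with the length trend removed it lay at 0.37 (edgeR adjusted p = 0.026). The median of the list was -0.03. Of 17 damage signalling genes, 1 rose (4 higher and 1 lower with the date block, median 0.06), the kinase ATM (log2 fold change 0.78, edgeR adjusted p = 0.0092, coding sequence of 9168 bases), which lay at 0.40 with the length trend removed (adjusted p = 0.043). Of 19 base excision genes, 0 rose and 2 fell (5 with the date block, median -0.02), the flap endonuclease FEN1 (-0.40, edgeR adjusted p = 0.011) and the endonuclease APEX2 (-0.36, edgeR adjusted p = 0.024). Of 18 nucleotide excision genes edgeR called 0 over the 5 libraries (2 at an unadjusted p under 0.05) and 1 lower with the date block, with a median of 0.01. DESeq2 and limma-voom counts for these lists were not computed. Of 54 G2/M genes 14 rose and 0 fell (42 with the date block), with the smallest p for CENPE (1.37) and GAS2L3 (1.26), and of 42 S phase genes 16 fell and 0 rose (35 with the date block), with the smallest p for MCM6 (-0.62) and UNG.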
